A study of Mus musculus with 8 samples.

Results

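The 10 genes described here encode the protein coat of the lipid droplet and the enzymes and cofactors that break down the triglyceride inside it. They were taken by gene name for their role, with earlier results of these data known, and are the perilipins *Plin1*, *Plin2*, *Plin3* and *Plin4*, the droplet protein gene *Cidec*, the neutral lipase genes *Pnpla2*, *Lipe* and *Mgll*, and *Abhd5* and *G0s2*, whose products act on the lipase encoded by *Pnpla2*. All 10 were among the 31053 genes counted, and 9 of them were among the 10181 genes with enough counts to be tested. *Cidec* was not tested because its counts were too low. Each of the 9 tested genes had at least 15 counts in every one of the 8 samples, so none of them entered the test through the higher group alone.

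The samples were fibro/adipogenic progenitors (FAPs), mesenchymal cells of skeletal muscle that can become adipocytes or fibroblast-like cells, from hind limbs of 45-day-old C57BL10ScSn-Dmdmdx/J (*mdx*) mice, a strain that lacks dystrophin. CD45-, CD31- and Integrin alpha-7- cells positive for SCA-1 were sorted into those with high surface SCA-1 (SCA1-High-FAPs, 4 samples) and those with low surface SCA-1 (SCA1-Low-FAPs, 4 samples, the group named as control), and both were then cultured for 5 days in growth medium. Both groups carried the *mdx* mutation and had the same culture, and no wild-type sample was compared. RNA was measured by QuantSeq 3′ sequencing, in which each transcript gives reads near its 3′ end whatever its length, so that CPM (read counts relative to the scaled total of the sample) can be set side by side between genes without a length correction, as far as the annotated 3′ ends are right.

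A lipid droplet is a store of triglyceride and sterol ester enclosed by a phospholipid layer and a protein coat. Perilipins form much of that coat. PLIN1 is typical of adipocytes, holds the cofactor ABHD5 at rest and releases it when protein kinase A phosphorylates the coat, whereas PLIN2 and PLIN3 are found on the droplets of most cell types. Lipolysis then proceeds through the lipases in order: PNPLA2 (also called ATGL) cuts triglyceride, LIPE (hormone-sensitive lipase) cuts diglyceride and MGLL cuts monoglyceride. ABHD5 (CGI-58) activates PNPLA2, and G0S2 inhibits it.

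The samples held 1880561 to 3985656 counts on genes, and 3 counts corresponded to 0.792 to 1.63 CPM. The names of the groups refer to the SCA-1 protein at the sort, before culture. In the harvested cells the mRNA of *Ly6a*, the gene of SCA-1, went the other way, at 492, 789, 645 and 919 CPM in the 4 SCA1-High-FAPs and 1100, 1080, 1156 and 1014 CPM in the 4 SCA1-Low-FAPs (log2 fold change -0.61, standard error (SE) 0.17, adjusted p = 0.0341). This call held in 1 of the 8 fits with 1 sample left out, and the names are kept here as labelled. All 8 FAP markers had counts in both groups. Of the 8 tested, *Dcn* and *Col3a1* passed the test described below with more mRNA in SCA1-High-FAPs, and *Ly6a* and *Thy1* with more in SCA1-Low-FAPs. With 1 sample left out, *Dcn* passed in 6 of the 8 fits, *Col3a1* in 2 and *Thy1* in 7. Of the 8 myogenic markers, none was tested. *Itga7* had 11, 0, 7 and 0 counts in SCA1-High-FAPs and 0, 18, 4 and 4 counts in SCA1-Low-FAPs. *Cdh15* had 1 count in the 8 samples together. The others, *Pax7*, *Myf5*, *Myod1*, *Myog*, *Myh3* and *Ckm*, had 0 counts in all samples. So did the leucocyte markers *Adgre1*, *Itgam*, *Cd3e* and *Cd79a*, and *Ptprc* had 1 count in the 8 samples together. *Lyz2*, whose call held in 6 of the 8 fits with 1 sample left out, was higher in SCA1-High-FAPs (log2 fold change 1.42, adjusted p = 0.0153). The summed leucocyte markers reached 25.3 to 48.0 CPM there against 12.5 to 19.3 CPM in SCA1-Low-FAPs. *Lyz2* alone had means of 28.7 CPM and 10.5 CPM. The untested *Cd68* had means of 2.88 CPM and 0.477 CPM, and the untested *Csf1r* had 3.32 CPM and 5.48 CPM. The summed markers overlapped between groups for endothelial cells (1.47 to 7.10 CPM against 0.483 to 7.39 CPM), pericytes and smooth muscle (22.0 to 37.6 CPM against 20.9 to 48.5 CPM) and tenocytes (16.3 to 47.9 CPM against 10.0 to 18.7 CPM), and those of Schwann cells were 10.6 to 20.0 CPM against 7.62 to 10.6 CPM. Single markers in these lists went both ways: *Myh11* was lower in all SCA1-High-FAPs (log2 fold change -1.85, adjusted p = 0.0232) and *Notch3* higher in all (1.54, adjusted p = 0.0487). With 1 sample left out, *Myh11* passed in 5 of the 8 fits and *Notch3* in 1. *Tnmd* was above SCA1-Low-FAPs in all SCA1-High-FAPs samples but did not pass (1.55, adjusted p = 0.0530), and *Scx* had 0 counts in SCA1-High-FAPs and 3 to 17 counts in SCA1-Low-FAPs and was not tested.

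Of the 3 lipase genes and the 2 genes whose products act on PNPLA2, 4 rose in SCA1-High-FAPs, as did 1 of the 4 perilipins. *Pnpla2*, *Lipe*, *Mgll*, *Abhd5* and *Plin4* passed the test, which required an adjusted p under 0.05 in edgeR's quasi-likelihood test and a log2 fold change (SCA1-High-FAPs over SCA1-Low-FAPs) beyond 0.5 in size. These were 5 of the 10 genes, all higher in SCA1-High-FAPs, where 7.68% of all tested genes passed in either direction, 4.36% toward SCA1-High-FAPs and 3.32% toward SCA1-Low-FAPs. DESeq2 called 8 of the 10, adding *Plin1*, *G0s2* and *Cidec*, with 8.53% of 12487 genes called in either direction and 4.86% toward SCA1-High-FAPs. *Plin1*, *Plin2*, *Plin3* and *G0s2* did not pass. The median log2 fold change of the 9 tested genes was 2.16, and that of all tested genes was -0.00029. In bulk samples such as these, fewer cells that express a gene and less RNA of that gene per cell cannot be told apart.

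**Figure D1:**
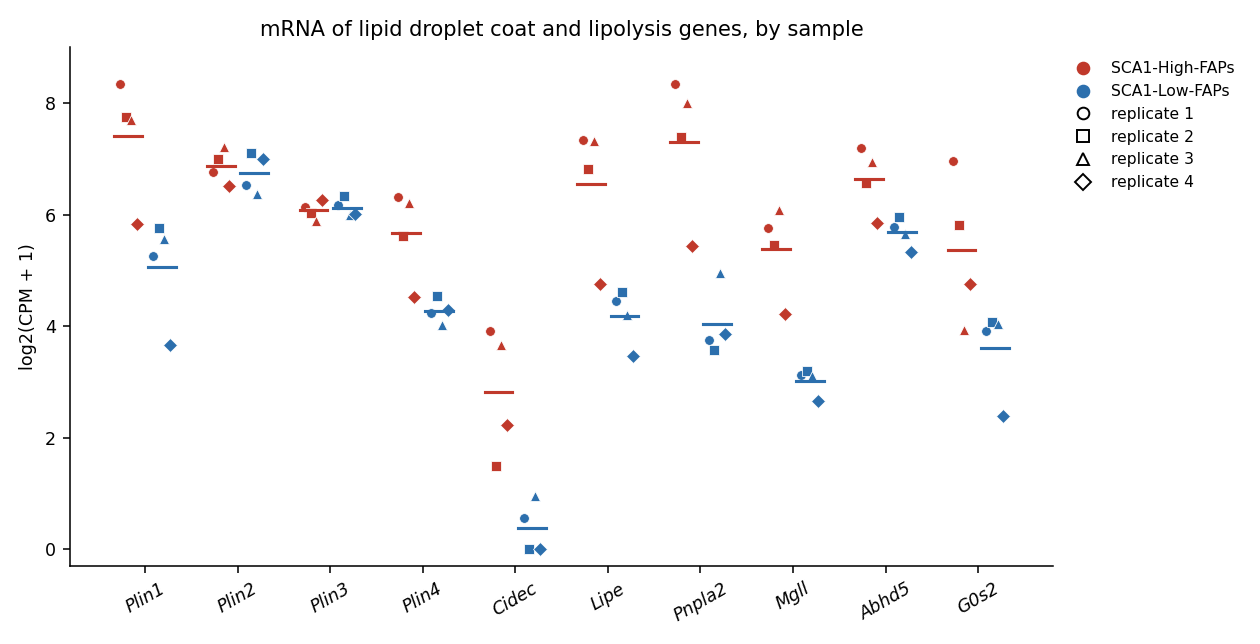
The level of each gene in each sample as log2(CPM + 1), with SCA1-High-FAPs in red, SCA1-Low-FAPs in blue, a symbol for each replicate number and a bar at the mean of each group (n = 4). *Plin2* and *Plin3* overlap fully between the groups, while *Plin1*, *Cidec*, *Lipe*, *Pnpla2* and *Mgll* lie higher in all SCA1-High-FAPs than in any SCA1-Low-FAPs.

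*Plin1* (ENSMUSG00000030546, GRCm38 chr7:79720218-79732903, minus strand) stood at 323, 215, 207 and 55.7 CPM in SCA1-High-FAPs replicates 1 to 4 and at 37.2, 53.4, 46.3 and 11.6 CPM in SCA1-Low-FAPs replicates 1 to 4. The groups did not overlap, but the fourth SCA1-High-FAPs sample was close to the highest SCA1-Low-FAPs sample. The mean level was 200.1 ± 110 CPM (SD, n = 4) against 37.1 ± 18.2 CPM (SD, n = 4). This is a log2 fold change of 2.45 (SE 0.65, 95% confidence interval 0.89 to 4.01). Its adjusted p of 0.0751 in edgeR did not pass the threshold. DESeq2 gave an adjusted p of 0.0036, and edgeR without robust estimation of the spread gave 0.00393. With SCA1-High-FAPs replicate 4 left out, the log2 fold change was 2.76 and the edgeR adjusted p was 0.00906, and *Plin1* then passed. With any other sample left out it did not.

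*Plin2* (ENSMUSG00000028494, chr4:86648386-86670060, minus strand) was measured at 107, 127, 147 and 90.9 CPM in SCA1-High-FAPs and at 91.4, 137, 81.8 and 126 CPM in SCA1-Low-FAPs. The samples of both groups were intermixed. The log2 fold change was 0.11 (SE 0.20, 95% confidence interval -0.30 to 0.53, adjusted p = 0.811 in edgeR), so a rise of more than 0.53 or a fall of more than 0.30 lay outside the interval. *Plin3* (ENSMUSG00000024197, chr17:56277476-56292873, minus strand), whose product moves from the cytosol to newly formed droplets, stood at 69.2, 64.2, 58.5 and 76.3 CPM against 71.1, 79.5, 62.5 and 63.4 CPM. The groups overlapped here too, with a log2 fold change of -0.04 (SE 0.18, 95% confidence interval -0.42 to 0.34, adjusted p = 0.936 in edgeR).

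*Plin4* (ENSMUSG00000002831, chr17:56100591-56109803, minus strand), which codes for a perilipin abundant in adipocytes, stood at 78.6, 48.4, 72.6 and 22.0 CPM in SCA1-High-FAPs and 17.9, 22.3, 15.2 and 18.5 CPM in SCA1-Low-FAPs. Replicates 1 to 3 of SCA1-High-FAPs were above all SCA1-Low-FAPs, and replicate 4 lay just below the highest of them. *Plin4* rose by a log2 fold change of 1.59 (SE 0.33, 95% confidence interval 0.89 to 2.29, adjusted p = 0.00756 in edgeR) and passed with any 1 of the 8 samples left out. Its annotated exons share 17 bases, the 3′ end included, with *Hdgfl2* on the other strand, which had 1065 counts. With the strand setting of the counting unknown, what this overlap does to the level of *Plin4* was not tested.

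*Cidec* (ENSMUSG00000030278, chr6:113424634-113435760, minus strand) codes for a protein that enlarges droplets by passing lipid from one to another. It had 30, 4, 28 and 10 counts in SCA1-High-FAPs and 1, 0, 3 and 0 counts in SCA1-Low-FAPs. Every SCA1-High-FAPs sample was above every SCA1-Low-FAPs sample, but all 4 SCA1-Low-FAPs samples were at or under the floor of 3 counts. The pooled counts of 72 and 4 gave a ratio of 20.6 after scaling to library size, with a 95% interval of 7.72 to 77.8 that covers counting error only. *Cidec* fell to the filter on low counts in edgeR. It passed in edgeR with no such filter (log2 fold change 4.20, adjusted p = 0.00112) and in DESeq2 (log2 fold change 4.40, adjusted p = 0.00156).

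*Plin1*, whose groups separated, and *Plin2*, whose groups did not, differ in this among the coat genes, and their RefSeq promoter windows (GRCm38.p6, minus strand, 250 bases before to 50 bases after the start) are shown to set their letters side by side. Capitals mark matches, on either strand, to the letters searched: AGGTCA (the hexamer that nuclear receptors such as PPARG bind), the direct repeat AGGTCANAGGTCA, CACGTG (the E-box), CCAAT (the box of that name), GGGCGG (the GC box), TATAAA (the TATA box), TGACG (the core of a cAMP response element) and TTGCGCAA (a C/EBP palindrome). The *Plin1* window is at chr7:79732727-79733026 and the *Plin2* window at chr4:86670010-86670309.
Plin1: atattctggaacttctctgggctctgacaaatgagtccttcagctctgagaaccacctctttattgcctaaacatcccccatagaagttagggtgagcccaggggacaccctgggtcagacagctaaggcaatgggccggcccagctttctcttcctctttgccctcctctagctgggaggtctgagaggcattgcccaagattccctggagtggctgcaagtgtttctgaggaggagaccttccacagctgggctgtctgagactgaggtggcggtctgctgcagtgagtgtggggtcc
Plin2: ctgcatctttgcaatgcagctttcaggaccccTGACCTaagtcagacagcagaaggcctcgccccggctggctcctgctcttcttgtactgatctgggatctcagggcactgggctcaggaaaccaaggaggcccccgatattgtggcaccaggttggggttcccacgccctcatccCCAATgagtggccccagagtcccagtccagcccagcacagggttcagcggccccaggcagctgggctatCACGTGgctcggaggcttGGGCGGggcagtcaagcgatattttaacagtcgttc
The *Plin1* window held no match to any of these letters and is in lower case throughout. The *Plin2* window held the nuclear receptor hexamer as its reverse complement, a CCAAT box, an E-box and a GC box. Among all 32851 windows of the same length, the hexamer was present in 16.3%, the CCAAT box in 37.4%, the E-box in 7.15% and the GC box in 35.7%. A match is a run of letters and was not tested for binding.

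*Pnpla2* (ENSMUSG00000025509, chr7:141455198-141460743, plus strand) stood at 324, 166, 257 and 42.5 CPM in SCA1-High-FAPs and at 12.6, 10.9, 30.1 and 13.5 CPM in SCA1-Low-FAPs. The groups did not overlap, although replicate 4 of SCA1-High-FAPs and replicate 3 of SCA1-Low-FAPs came near each other. Its mean was 197 ± 122 CPM (SD, n = 4) against 16.8 ± 8.98 CPM (SD, n = 4). *Pnpla2* rose 11.5-fold (log2 fold change 3.52, SE 0.70, 95% confidence interval 1.86 to 5.18, adjusted p = 0.0286 in edgeR), the largest fold change of the 9 tested genes. It passed in 3 of the 8 fits with 1 sample left out. It did not pass without SCA1-High-FAPs replicate 2 or 3, or without SCA1-Low-FAPs replicate 1, 2 or 4, and the adjusted p over the 8 fits ran from 6.86e-05 to 0.111.

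*Lipe* (ENSMUSG00000003123, chr7:25379527-25398710, minus strand) stood at 161, 112, 159 and 26.0 CPM in SCA1-High-FAPs and 20.8, 23.4, 17.4 and 10.0 CPM in SCA1-Low-FAPs. The groups did not overlap, and replicate 4 of SCA1-High-FAPs was again close to the SCA1-Low-FAPs samples. *Lipe* rose by a log2 fold change of 2.70 (SE 0.56, 95% confidence interval 1.41 to 3.99, adjusted p = 0.0243 in edgeR). It missed the threshold with no filter on low counts (adjusted p = 0.0622), and without SCA1-High-FAPs replicate 3 or without any 1 of the 4 SCA1-Low-FAPs samples (adjusted p up to 0.0889). The gene lies inside the antisense gene *4732471J01Rik*, which had 23 counts in all, and the strand setting of the counting was not given in the sources used here.

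*Mgll* (ENSMUSG00000033174, chr6:88724412-88828360, plus strand) was at 53.2, 42.9, 66.8 and 17.6 CPM in SCA1-High-FAPs and 7.73, 8.17, 7.61 and 5.28 CPM in SCA1-Low-FAPs. All SCA1-High-FAPs samples were above all SCA1-Low-FAPs samples, and the latter lay close together. *Mgll* rose 6.31-fold (log2 fold change 2.66, SE 0.37, 95% confidence interval 1.87 to 3.45, adjusted p = 0.000612 in edgeR). It passed with any 1 sample left out and had the lowest adjusted p of the 9 tested genes. Its exons share 167 bases, away from the 3′ end, with the antisense gene *Gm26588*, which had 0 counts.

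*Abhd5* (ENSMUSG00000032540, chr9:122351608-122381524, plus strand) was at 146, 94.0, 123 and 56.8 CPM in SCA1-High-FAPs and at 53.7, 61.5, 49.5 and 39.3 CPM in SCA1-Low-FAPs. Replicate 4 of SCA1-High-FAPs fell within the range of SCA1-Low-FAPs, so the groups overlapped. *Abhd5* rose by a log2 fold change of 1.05 (SE 0.25, 95% confidence interval 0.52 to 1.58, adjusted p = 0.0163 in edgeR). It missed the threshold without SCA1-High-FAPs replicate 1 or without SCA1-Low-FAPs replicate 1 or 4 (adjusted p over the 8 fits 0.00169 to 0.0611). Its exons share 950 bases, the 3′ end included, with the antisense gene *A730085K08Rik*, which had 0 counts. With the strand setting of the counting unknown, what this overlap does to the level of *Abhd5* and its ratios was not tested.

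*G0s2* (ENSMUSG00000009633, chr1:193272161-193273217, minus strand), the gene of the PNPLA2 inhibitor, was at 123, 55.2, 14.2 and 26.0 CPM in SCA1-High-FAPs and at 14.0, 15.8, 15.5 and 4.22 CPM in SCA1-Low-FAPs. Replicate 3 of SCA1-High-FAPs, among the highest for *Pnpla2* and *Lipe*, was the lowest of its group here and lay within SCA1-Low-FAPs. The log2 fold change was 2.16 (SE 0.72, 95% confidence interval 0.51 to 3.82), and the edgeR adjusted p of 0.120 did not pass. It passed in DESeq2 (adjusted p = 0.0474), in edgeR without robust estimation (adjusted p = 0.0254) and without SCA1-High-FAPs replicate 3 (adjusted p = 0.0403). Without SCA1-High-FAPs replicate 1, its highest sample, the log2 fold change was 1.38 (adjusted p = 0.121), and it did not pass in the other 6 fits with 1 sample left out.

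**Figure D2:**
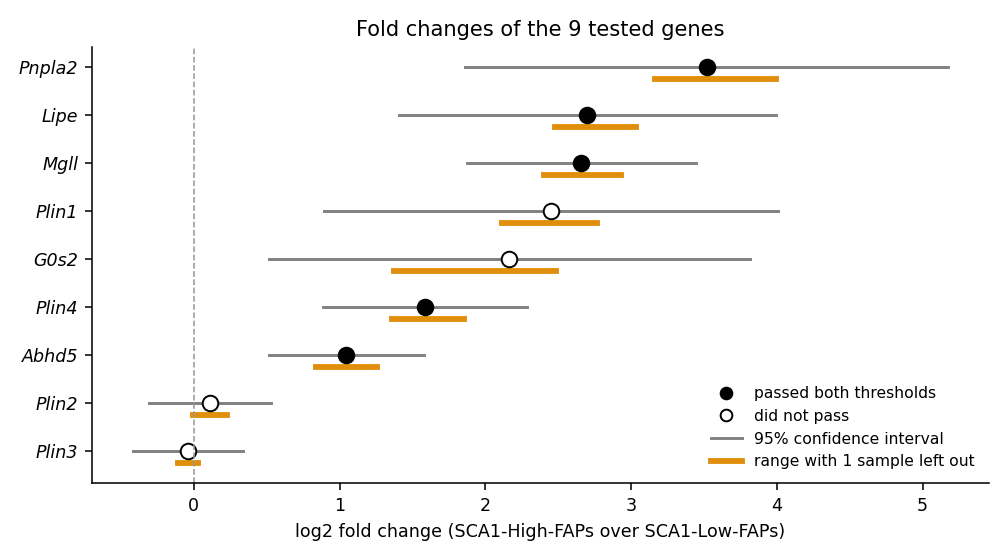
Log2 fold changes of the 9 tested genes with 95% confidence intervals in grey (edgeR, 4 samples against 4) and, in orange, the range over the 8 fits with 1 sample left out. Filled points passed both thresholds. *Pnpla2* had the largest value at 3.52, and *Plin2* and *Plin3* lie at 0.11 and -0.04.

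Among the 10 genes, 5 (*Plin1*, *Cidec*, *Lipe*, *Pnpla2* and *Mgll*) had all 4 SCA1-High-FAPs samples above all 4 SCA1-Low-FAPs samples. Without *Cidec* these were 4 of the 9 tested genes, and among all tested genes 7.46% did the same. Replicate 4 was the lowest SCA1-High-FAPs sample for 7 genes, and replicate 1 was the highest for 7. The summed level of the 10 adipocyte markers, none of them a member, had its highest SCA1-High-FAPs value in replicate 1 and its lowest in replicate 4, at 7129, 2575, 4375 and 1520 CPM in SCA1-High-FAPs and 390, 502, 874 and 292 CPM in SCA1-Low-FAPs. Of these markers 9 had counts, 8 were tested and 5 were higher in SCA1-High-FAPs (*Retn*, *Adrb3*, *Cebpa*, *Car3* and *Adipoq*), beside 4.36% of all tested genes. With 1 sample left out, *Retn*, *Adrb3* and *Cebpa* passed in all 8 fits and *Car3* in 3. *Cfd* (log2 fold change 5.46, adjusted p = 0.0534), *Fabp4* (2.77, adjusted p = 0.101) and *Pparg* (1.45, adjusted p = 0.115) did not pass in edgeR. In DESeq2 they passed (adjusted p = 8.08e-05, 0.00346 and 0.0206). *Lep* had 0 counts in all samples. *Adipoq*, the adipokine adiponectin, was at 608, 169, 421 and 60.1 CPM in SCA1-High-FAPs and 9.18, 9.26, 24.4 and 4.22 CPM in SCA1-Low-FAPs, and its call held in 2 of the 8 fits with 1 sample left out. The part of these adipocyte transcripts, and of the leucocyte transcripts above, in the differences of the 10 genes was not tested.

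The genes stood in a different order of mean level in each group. In SCA1-High-FAPs *Plin1* had the highest mean level, followed by *Pnpla2*, *Plin2*, *Lipe*, *Abhd5*, *Plin3*, *Plin4*, *G0s2*, *Mgll* and *Cidec*, and all neighbours in that order overlapped over the 4 samples except *Mgll* and *Cidec*. In SCA1-Low-FAPs *Plin2* had the highest mean level, then *Plin3*, *Abhd5*, *Plin1*, *Plin4*, *Lipe*, *Pnpla2*, *G0s2*, *Mgll* and *Cidec*. There, *Plin2* and *Plin3*, *Plin3* and *Abhd5*, and *Mgll* and *Cidec* did not overlap, and the other neighbours did.

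As a share of the counts of all 4 perilipins, *Plin1* made up 42.1% ± 14.0 (SD, n = 4) in SCA1-High-FAPs against 15.8% ± 7.38 (SD, n = 4) in SCA1-Low-FAPs. *Plin2* made up 28.5% ± 7.67 and 46.5% ± 7.90. *Plin3* made up 17.3% ± 9.26 and 29.8% ± 2.33, and *Plin4* 12.1% ± 2.73 and 7.91% ± 0.476. The summed perilipins reached 245 to 578 CPM in SCA1-High-FAPs and 206 to 292 CPM in SCA1-Low-FAPs, so the totals overlapped while the largest single contributor was *Plin1* in 3 of the 4 SCA1-High-FAPs samples and *Plin2* in all SCA1-Low-FAPs samples. The 3 lipases together reached 86.2 to 538 CPM in SCA1-High-FAPs and 28.8 to 55.2 CPM in SCA1-Low-FAPs, with no overlap. *Pnpla2* made up 53.7% ± 4.67 (SD, n = 4) of the lipase counts in SCA1-High-FAPs against 39.4% ± 13.6 (SD, n = 4) in SCA1-Low-FAPs.

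**Figure D3:**
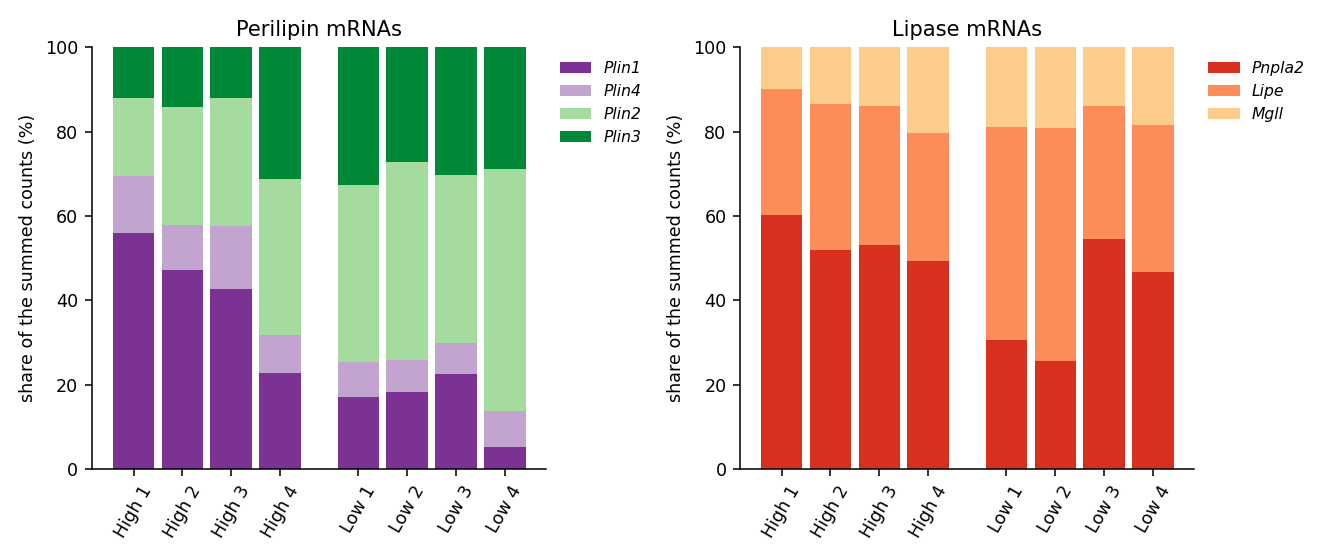
Share of each gene in the summed counts of the 4 perilipins (left) and the 3 neutral lipases (right), in percent, with 1 bar per sample and replicates numbered. *Plin1* is the largest perilipin share in SCA1-High-FAPs replicates 1 to 3 and *Plin2* in the other 5 samples.

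Ratios between 2 genes of the same sample need no scaling between samples, and 6 of them were compared. The test was an exact permutation test, two-sided, over 70 assignments, and its smallest possible p is 0.0286. The ratio of *Plin1* to *Plin2* was 3.0, 1.68, 1.41 and 0.614 in SCA1-High-FAPs against 0.409, 0.390, 0.567 and 0.0928 in SCA1-Low-FAPs. The groups did not overlap, and the mean log2 ratio was higher by 2.26 in SCA1-High-FAPs (exact permutation p = 0.0286, 0.0857 after adjustment over the 6 ratios). The ratio of *Abhd5* to *Pnpla2*, the coactivator to its lipase, was 0.452, 0.566, 0.478 and 1.33 in SCA1-High-FAPs against 4.21, 5.54, 1.64 and 2.90 in SCA1-Low-FAPs. It too did not overlap, and the difference in mean log2 ratio was -2.35 (exact permutation p = 0.0286, adjusted 0.0857).

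The ratio of *G0s2* to *Pnpla2*, the inhibitor to its lipase, spread widely and overlapped, at 0.381, 0.332, 0.0561 and 0.614 in SCA1-High-FAPs against 1.11, 1.44, 0.518 and 0.320 in SCA1-Low-FAPs. Its mean log2 ratio differed by -1.48 (exact permutation p = 0.2, adjusted 0.24). The differences in mean log2 ratio were -0.89 for *Lipe* to *Pnpla2* (exact permutation p = 0.114, adjusted 0.214), 0.05 for *Mgll* to *Lipe* (exact permutation p = 0.857, adjusted 0.857) and 1.49 for *Cidec* to *Plin1* (exact permutation p = 0.143, adjusted 0.214). The last fell to 0.32 when 2 counts in place of 0.5 were added to each gene, since *Cidec* had few counts. None of the 6 had an adjusted p under 0.05. The 2 lowest were already at the smallest p that this permutation test can give, and the adjustment over the 6 ratios raised it to 0.0857.

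**Figure D4:**
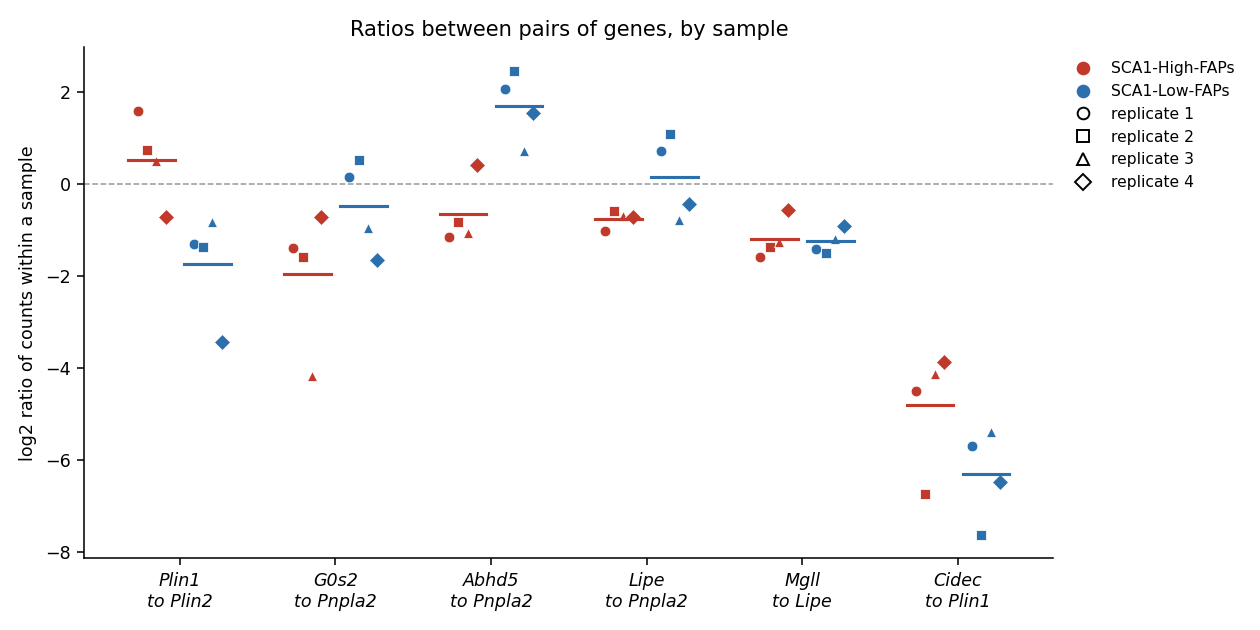
Log2 ratio of the counts of 2 genes within each sample (0.5 added to each count), with SCA1-High-FAPs in red, SCA1-Low-FAPs in blue, a symbol for each replicate number and a bar at the group mean (n = 4). The groups separate for *Plin1* to *Plin2* and for *Abhd5* to *Pnpla2* and overlap for the other 4 ratios.

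The *Pnpla2* and *Abhd5* windows are shown because the ratio of these genes separated the groups. Both are from RefSeq on GRCm38.p6, plus strand, at chr7:141454938-141455237 and chr9:122351366-122351665, with capitals as above.
Pnpla2: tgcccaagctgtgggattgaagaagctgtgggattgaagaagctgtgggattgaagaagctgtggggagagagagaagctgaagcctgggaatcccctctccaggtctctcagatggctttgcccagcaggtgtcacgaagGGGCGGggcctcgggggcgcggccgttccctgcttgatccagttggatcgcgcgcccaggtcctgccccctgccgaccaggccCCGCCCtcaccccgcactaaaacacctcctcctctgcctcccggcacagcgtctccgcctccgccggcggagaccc
Abhd5: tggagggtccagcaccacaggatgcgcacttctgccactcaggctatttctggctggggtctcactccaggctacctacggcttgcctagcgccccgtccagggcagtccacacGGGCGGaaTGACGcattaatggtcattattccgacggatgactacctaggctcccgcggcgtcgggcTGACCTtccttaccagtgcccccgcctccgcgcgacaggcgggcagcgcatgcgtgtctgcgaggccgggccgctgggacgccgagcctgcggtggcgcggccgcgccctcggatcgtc
The *Pnpla2* window held 2 GC boxes and no other match. The *Abhd5* window held the hexamer AGGTCA as its reverse complement, a GC box and the TGACG core, the last of which was in 20.8% of all windows. All 10 genes had a RefSeq window, 13 windows in all, with 2 each for *Cidec*, *Lipe* and *Mgll*. A match in either window counted for the gene, whereas the shares of all windows are per window. The 13 windows had 55.7% to 72.3% G and C, where the median of all windows was 52.7%. A GC box was found in those of 7 genes, the E-box in *Plin2*, *Lipe* and *Mgll*, the CCAAT box in *Plin2*, *Plin3* and *Plin4*, and the cAMP core in *Mgll*, *Abhd5* and *G0s2*. The hexamer was found in *Plin2* and *Abhd5* alone of the 10. No window of the 10 genes held the direct repeat (0.0396% of all windows), the TATA box (13.6%) or the C/EBP palindrome (0.183%).

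Likeness of replicate-to-replicate variation was described by Pearson's r of log2 CPM over the 8 samples after each group's mean was removed, so that the difference between groups does not enter. With these points few and from the same libraries, r is a description only. *Lipe*, *Mgll* and *Abhd5* went up and down together (r = 0.979 for *Lipe* and *Mgll*, 0.963 for *Lipe* and *Abhd5*, 0.926 for *Mgll* and *Abhd5*). *Plin1* was like *Lipe* (r = 0.911, rank 18 of 10180 genes), *Abhd5* (r = 0.899, rank 24) and *Mgll* (r = 0.844, rank 74), less like *Pnpla2* (r = 0.712, rank 302), and unlike *Plin2* (r = 0.13) and *Plin3* (r = -0.08).

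Across all tested genes, the 5 most like *Plin1* were *Gm16365* (r = 0.989), *Col18a1* (r = 0.980), *Acsl1* (r = 0.970), *Enpp2* (r = 0.961) and *Ift172* (r = 0.936). *Acsl1*, which activates fatty acids to acyl-CoA, was also higher in SCA1-High-FAPs (log2 fold change 2.13, adjusted p = 0.0114 in edgeR), as was *Enpp2*, which codes for autotaxin (log2 fold change 2.77, adjusted p = 0.00126 in edgeR). In edgeR, *Gm16365* (log2 fold change 0.82, adjusted p = 0.421), *Col18a1* (0.75, adjusted p = 0.215) and *Ift172* (-0.82, adjusted p = 0.301) did not pass. Those most like *Plin2* included *Utp15* (r = 0.980), *Hebp2* (r = 0.971), *Upf3b* (r = 0.969) and *Pygb* (r = 0.965), none of which passed the test between groups.

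**Figure D5:**
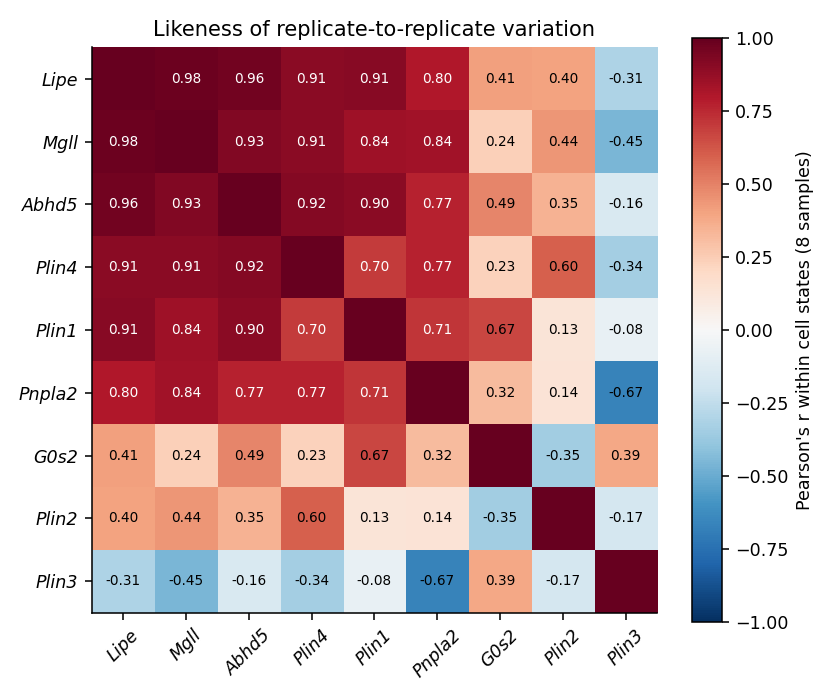
Pearson's r between the 9 tested genes over 8 samples, after the mean of each group was removed, from blue (negative) to red (positive). *Lipe*, *Mgll*, *Abhd5*, *Plin4*, *Plin1* and *Pnpla2* lie together at 0.70 to 0.98. *G0s2*, *Plin2* and *Plin3* have lower values with them, up to 0.67 for *G0s2* with *Plin1* and 0.60 for *Plin2* with *Plin4*.

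Other genes of the pathway moved unevenly. Among 22 other droplet protein genes 15 were tested and 2 rose: *Mettl7a1* (log2 fold change 1.33, adjusted p = 0.0143) and *Bscl2*, the gene of seipin, which organises droplet formation (0.76, adjusted p = 0.0181). Over all tested genes 4.36% rose, and the 15 had a median log2 fold change of 0.03. The abundant caveolar genes *Cavin1* (0.03, adjusted p = 0.949) and *Cav1* (0.75, adjusted p = 0.243) did not pass. *Plin5*, the perilipin of oxidative tissues, had 6 counts in SCA1-High-FAPs against 1 in SCA1-Low-FAPs and was not tested. The call of *Bscl2* held in 4 of 8 fits with 1 sample left out and that of *Mettl7a1* in 6.

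Among 17 genes of other lipases and of proteins that act on lipases, 11 were tested and 3 rose, where 4.36% of all tested genes did. *Lpl*, which frees fatty acids from lipoproteins outside the cell, was at 5770, 2723, 4317 and 1925 CPM in SCA1-High-FAPs and at 567, 851, 816 and 398 CPM in SCA1-Low-FAPs, without overlap (log2 fold change 2.49, SE 0.39, adjusted p = 0.00704 in edgeR), and its level was above that of each of the 10 genes in every sample. *Pnpla8* (0.90, adjusted p = 0.0278) and *Angptl4*, which codes for an inhibitor of LPL (1.17, adjusted p = 0.0447), also rose. The lysosomal lipase gene *Lipa* (0.31, adjusted p = 0.457) and *Ddhd2* (0.08, adjusted p = 0.877) did not pass, and the median of the 11 was 0.31. With 1 sample left out, *Lpl* passed in all 8 fits, *Pnpla8* in 4 and *Angptl4* in 2.

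Of 23 genes that control lipolysis through cAMP, cGMP and insulin, 15 were tested, 5 were higher in SCA1-High-FAPs (4.36% of all tested genes) and 1 was lower (3.32% of all tested genes), with a median log2 fold change of -0.06. *Adrb3*, the beta-3 adrenergic receptor that starts lipolysis in adipocytes and is also among the adipocyte markers above, was at 87.1, 33.5, 58.9 and 11.4 CPM in SCA1-High-FAPs and at 2.90, 0.544, 1.90 and 0.792 CPM in SCA1-Low-FAPs (log2 fold change 4.94, adjusted p = 0.00132 in edgeR). *Pde3b*, whose product degrades cAMP downstream of insulin, rose by 1.72 on the log2 scale (adjusted p = 0.00185 in edgeR). Of the genes of protein kinase A regulatory subunits, *Prkar2b* was up by 1.08 (adjusted p = 0.00219) and *Prkar2a* was at -0.84 (adjusted p = 0.00514). *Prkar1a*, at a mean of 344 CPM in SCA1-High-FAPs against 358 CPM, did not pass (-0.06, adjusted p = 0.874 in edgeR). *Gnai1* (1.94, adjusted p = 0.0207) and *Insr*, the insulin receptor (1.46, adjusted p = 0.0291), rose as well, while *Gnas* (-0.08, adjusted p = 0.835) and *Gnai2* (-0.22, adjusted p = 0.380) did not pass. *Adrb3*, *Pde3b*, *Prkar2b* and *Prkar2a* passed in all 8 fits with 1 sample left out, *Gnai1* in 4 and *Insr* in 2.

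Of 12 genes for the export and re-use of the products, 10 were tested and 6 rose, again beside 4.36% of all tested genes, with a median log2 fold change of 1.18. They were the glycerol channel gene *Aqp7* (3.43, adjusted p = 0.00219), the fatty acid transporter *Cd36* (2.81, adjusted p = 0.00254), *Dgat1*, which re-forms triglyceride (1.23, adjusted p = 0.00298), *Acsl1*, *Agpat2* (1.13, adjusted p = 0.0192) and *Fabp5* (0.74, adjusted p = 0.0269). The fatty acid carrier *Fabp4* (2.77, adjusted p = 0.101), also among the adipocyte markers above, and *Lpin1* (0.84, adjusted p = 0.0610) did not pass in edgeR. Both were higher in all SCA1-High-FAPs than in any SCA1-Low-FAPs and passed in DESeq2 (adjusted p = 0.00346 and 0.0473). With 1 sample left out, *Aqp7*, *Cd36*, *Dgat1* and *Acsl1* passed in all 8 fits, *Agpat2* in 4 and *Fabp5* in 2.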

How the data were processed

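The authors sequenced QuantSeq 3′ FWD libraries of 4 SCA1-High-FAPs and 4 SCA1-Low-FAPs samples. Per the submitters' processing notes, STAR and HTSeq were among the tools used, and the deposited values are raw read counts per gene. The 5 summary rows of the counting that name no gene were left out. From them, counts outside genes made up 13.3% to 16.4% of the counts on genes, outside genes and ambiguous together. The row for several positions made up 37.5% to 43.3% once it was added to that total, so the 2 shares have different bases. Gene symbols and positions came from GENCODE M21 (GRCm38), which matched 31011 of 31053 identifiers. Counts were tested with edgeR 4.0.16 in R 4.3.3: filterByExpr by group, TMM scaling, robust quasi-likelihood fit, glmQLFTest, Benjamini-Hochberg adjustment over 10181 genes. A gene was called at an adjusted p under 0.05 and a log2 fold change beyond 0.5. DESeq2 1.42.0 was an alternative. CPM used TMM-scaled library sizes. Ratios were tested with SciPy 1.17.1. The procedure was tested on simulated counts in which every gene had the same setting of spread and no sample stood apart. That simulation does not bear on genes with an outlying sample. The study calls the 4 samples of a group biological replicates from different mice. Whether an SCA1-High-FAPs and an SCA1-Low-FAPs sample came from the same mouse was not given in the sources used here, and equal replicate numbers were not treated as pairs. The members and the gene lists were chosen with earlier results of these data known. The text names all 10 members, the called genes of each list with the lowest adjusted p (up to 5 per direction), the 2 most abundant uncalled ones, and the 5 genes most like *Plin1* and *Plin2*, of which 1 is not reported here. *Plin5*, *Lyz2*, *Ptprc*, *Cd68*, *Csf1r*, *Thy1*, *Dcn*, *Col3a1*, *Adipoq*, *Cfd*, *Pparg*, *Itga7*, *Cdh15*, *Myh11*, *Notch3*, *Tnmd*, *Scx* and *Prkar1a* were named after their values were seen. Other alternatives were RLE scaling, other filters, no robust estimation, a replicate block and the omission of each sample.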

Additional observations from a re-analysis of the deposited data

Results flagged for a closer look

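In 2 of the 32 groups of 4 samples checked, 1 sample stood far from the other 3 (by Dixon's ratio of the gap to the range, at its 95% critical value), where chance alone flags about 1 in 20 groups. The *Pnpla2* level of SCA1-Low-FAPs replicate 3 was 30.1 CPM, above 10.9 to 13.5 CPM in the other 3 samples of the group. The *G0s2* level of SCA1-Low-FAPs replicate 4 was 4.22 CPM, below 14.0 to 15.8 CPM in the other 3.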

How the results depend on the processing

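The edgeR test called 5 of the 10 genes. DESeq2 called 8, an adjusted p under 0.01 left 2, and the omission of 1 sample gave 2 to 6 (2 without SCA1-Low-FAPs replicate 1 or 4, 3 without replicate 2). For the gene lists, the omission of 1 sample moved the 2 calls among droplet proteins to 0 to 3 (0 without SCA1-High-FAPs replicate 1 or SCA1-Low-FAPs replicate 4, 1 without SCA1-High-FAPs replicate 3 or SCA1-Low-FAPs replicate 2). The 3 calls among other lipases and proteins that act on them moved to 1 to 3 (1 without SCA1-High-FAPs replicate 1 or SCA1-Low-FAPs replicate 1, 2 or 4). The 6 among control genes moved to 4 to 6 and the 6 among export genes to 4 to 8. At an adjusted p under 0.01 these were 0 droplet proteins, 1 other lipase and 3 export genes, and at least 10 counts in every sample left 3 control genes. With 1 sample left out, the log2 fold change of *Plin2* ran from -0.0068 (without SCA1-High-FAPs replicate 3) to 0.23 and that of *Plin3* from -0.11 to 0.027, turning positive without SCA1-Low-FAPs replicate 2 and, at 0.023, without SCA1-High-FAPs replicate 3. The ratio of *Mgll* to *Lipe* turned to -0.00068 with 2 counts added. The omission of 1 sample gave mean log2 ratio differences of 1.69 to 2.67 for *Plin1* to *Plin2*, -1.90 to -0.75 for *G0s2* to *Pnpla2*, -2.71 to -2.09 for *Abhd5* to *Pnpla2*, -1.21 to -0.58 for *Lipe* to *Pnpla2*, -0.16 to 0.18 for *Mgll* to *Lipe* and 1.05 to 2.14 for *Cidec* to *Plin1*. Same-numbered samples did not deviate together (r of -0.0502 to 0.00673 over 4 pairs), so the numbers were not taken as pairs. A replicate block called 7 of the 10 genes (6.85% of all tested genes), adding *Plin1* (adjusted p = 8.25e-05) and *G0s2* (adjusted p = 0.0355). It gave 2 droplet proteins, 3 genes of other lipases and proteins that act on them, 5 control genes and 6 export genes. The causes of these changes were not tested. Depth limited *Cidec*, which was at or under 3 counts in all SCA1-Low-FAPs samples.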
